A study of Danio rerio with 4 samples.

Results

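Translation initiation factor genes were followed in zebrafish cardiac ventricles taken 4 days after injury. Members were the genes whose symbol in the deposited table begins with eif1 to eif6, other than the eif2ak kinases, and whose mean normalised count over all libraries was 10 or more. The rule gave 59 genes of 19875 in the table, from 60 symbol matches. The match left out was eif3bb, at 2 and 3 in ccn2a-/- ventricles against 5 and 5 in wild type. The lowest members that were kept, eif4ebp3, eif2b3 and eif1ad, had means from 256.5 to 287.5, so no member lay near the limit. All 59 are annotated as protein-coding, and they lie on 21 chromosomes with at most 6 on any of them. By symbol they fall into 4 eif1, 6 eif2, 5 eif2b, 16 eif3, 23 eif4 and 5 eif5 or eif6 genes.

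The series compared ccn2a-/- ventricles with wild-type ventricles, in 2 libraries each, all at 4 dpci in the labels' notation. ccn2a encodes a secreted matrix-associated protein of the CCN family. The labels give neither the genetic lesion in ccn2a nor the strain, age or sex of the fish. They also do not say whether a library came from 1 heart or a pool. The p-values therefore cover only the spread among these libraries, and that spread may be technical. The atrium and the bulbus arteriosus had been removed, and poly(A) RNA libraries were made with a stranded kit. Approximate depth was 18.8 and 18.1 M reads in the mutants and 17.2 and 21.5 M in wild type.

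Initiation brings the ribosome to the start codon of a messenger RNA. The heterotrimer eIF2 carries the initiator tRNA to the small subunit and is recharged with GTP by eIF2B. eIF1, eIF1A and the large eIF3 complex hold the small subunit open for scanning. At the cap of the message, eIF4E, the scaffold eIF4G and the helicase eIF4A form the eIF4F complex. The eIF4E-binding proteins (4E-BPs) compete with eIF4G for eIF4E, and phosphorylation by the kinase complex mTORC1 releases them. eIF5 and eIF5B lead to subunit joining, which eIF6 opposes by holding the large subunit apart. In zebrafish, whose cardiomyocytes divide after heart injury, the cap-binding paralog eif4e1c has been reported to take part in heart regeneration. RNA levels show neither the amount of these proteins nor their phosphorylation.

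Values are read counts that the authors had scaled by library and rounded, called normalised counts here. Genotypes were compared with limma on log2(value + 1), mutant over wild type, across the 16730 genes with a mean of 10 or more, and p-values were adjusted over all of them (Benjamini-Hochberg), with 0.05 as the threshold. The targeted transcript (ctgfa in the table) was at 3070 and 1473 in ccn2a-/- ventricles against 4737 and 4411 in wild type. Transcripts of the mitochondrial genome took 14.7% and 13.6% of the values in ccn2a-/- ventricles, against 13.4% and 7.66% in wild type, where replicate 2 stood apart. Sums of several cell composition marker lists also differed by genotype. Of 6 cardiomyocyte markers matched, 6 were higher in the mutants, 5 of them without overlap, with sums of 656485 to 776414 against 389834 to 558982 in wild type. Of 6 erythrocyte rows 6 were higher, with sums of 210278 to 234742 against 115883 to 143763, and of 5 endothelial markers 5 were higher, with sums of 21452 to 21706 against 14410 to 16474. Of 6 proliferation markers 6 were lower, 4 of them without overlap, with sums of 5248 to 5732 in ccn2a-/- ventricles against 10140 to 14826. Of 5 macrophage markers, 4 had a log2 fold change below 0 and 3 had both mutants below both wild types, and their summed level was 9758 to 10529 in ccn2a-/- ventricles and 12597 to 13278 in wild type. Of 4 neutrophil rows, 3 had a log2 fold change below 0 and 2 of these did not overlap, with sums of 290 to 549 in ccn2a-/- ventricles and 551 to 556 in wild type. Of 5 fibroblast and epicardial markers, 4 overlapped between the groups. Groups did not overlap at 83.3% of cardiomyocyte, 66.7% of proliferation, 60% of macrophage, 50% of neutrophil and 20% of fibroblast and epicardial markers. The share was 100% for erythrocyte and for endothelial markers, and 52.3% for all genes tested. The atrial gene myh6 was at 4585 and 4293 in ccn2a-/- ventricles against 5854 and 3276 in wild type, and the bulbus gene elnb at 376 and 317 against 944 and 494. None of these markers was at 0 in any library. In such bulk samples fewer cells of a type and less RNA per cell cannot be told apart, and the part of these markers in the results that follow was not tested.

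No initiation factor gene passed the threshold. The count was 0 of 59 with limma-trend and 0 with limma voom, as for all genes (0% of 16730), and the smallest adjusted p of a member was 0.381 (limma). At an unadjusted p under 0.05 there were 7 members, or 11.9%, against 12.8% of all genes tested. Of the 7, 5 were higher in the mutant (eif3k, eif4ebp1, eif4ebp3, eif4ebp3l and eif4e3; 5.89% of all genes) and 2 lower (eif4g1a and eif4e1c; 6.93% of all genes). Genotypes did not overlap at 33 members, or 55.9%, against 52.3% of all genes. The mutants were above at 17 of them and below at 16, beside 26.6% and 25.7% of all genes. The shares of 11.9% and 55.9% lie near those of the whole table. The count of 7 changed when single libraries were left out, and so did the count over all genes tested. A log2 fold change above 0 was found for 28 members, or 47.5%, against 50% of all genes, and 31 were lower. The median was -0.04, beside 0.00 over all genes. A log2 difference of 0.5 or more was found for 11 members, 6 higher and 5 lower, or 18.6%, against 37.7% of all genes. These shares are not matched for level, since no member had a mean under 256.5 and the genes tested include much lower ones. Whether level alone gave the gap between the shares was not tested. The SE of a member's log2 fold change ran from 0.178 to 0.597.

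**Figure D1:**
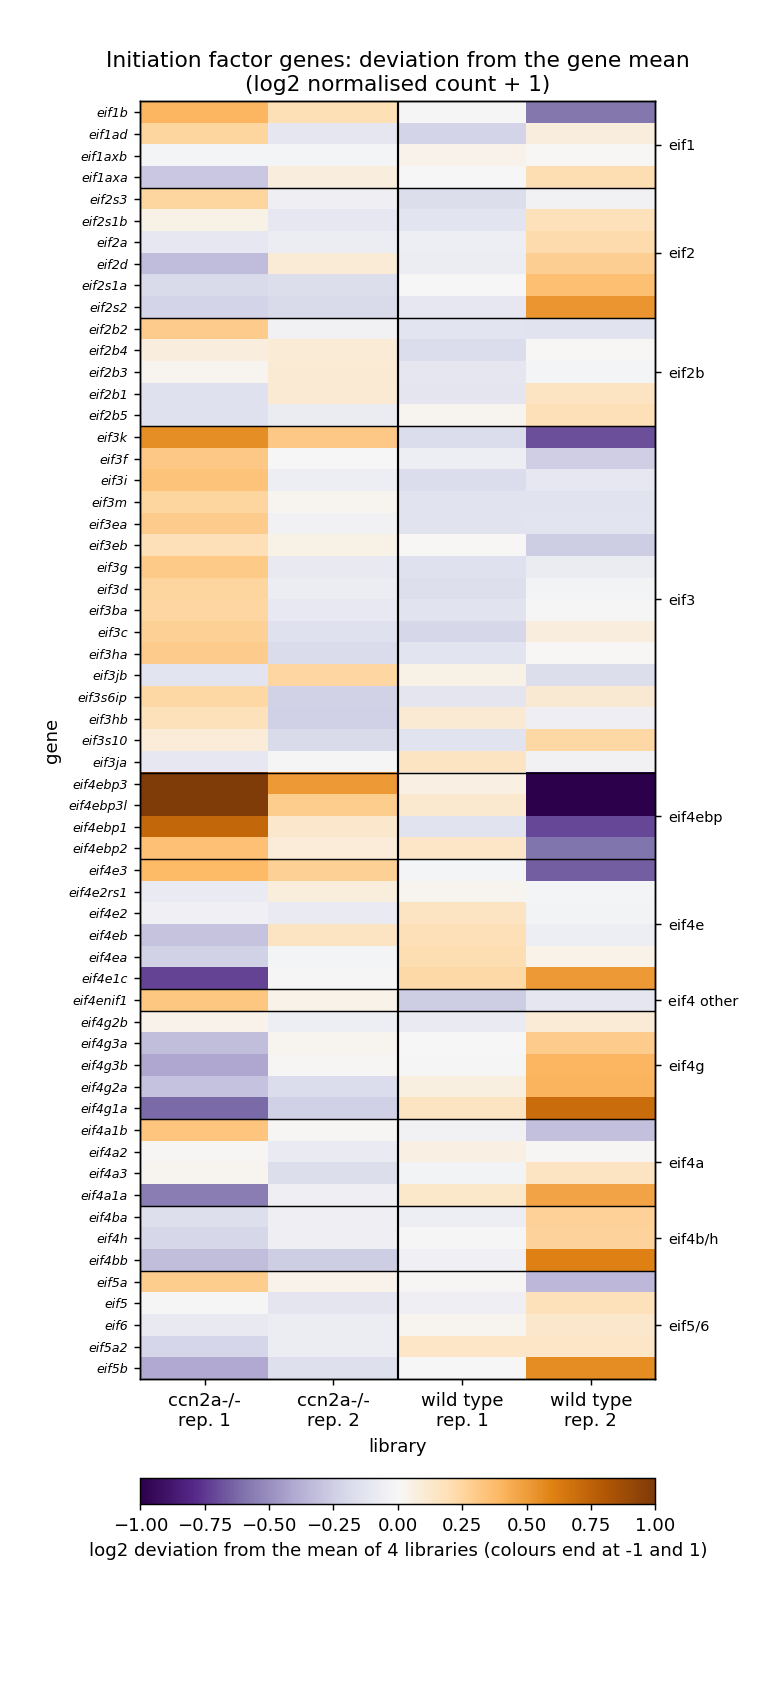
Deviation of each of the 59 genes in each library from its mean over all 4 (log2 of normalised count + 1), with mutant columns left and wild-type columns right and rows grouped by complex. The eif4ebp rows are high in mutant replicate 1 and low in wild-type replicate 2, the eif4g rows other than eif4g2b show the opposite pattern, and 13 of 16 eif3 rows are highest in mutant replicate 1.

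All 4 genes for 4E-BPs, which hold translation back, had a log2 fold change above 0, and eif4ebp3 and eif4ebp3l had the highest of all members. The gene eif4ebp3 (chromosome 21, 26401332 to 26406304, minus strand) had normalised counts of 459 and 293 in ccn2a-/- ventricles, against 213 and 61 in wild type. Both mutants lay above both wild types, and wild-type replicate 2 was far below the rest. The ratio of the mean normalised counts was 2.74. The log2 fold change, which compares means of log2 values and so weighs the low library more, was 1.67 (SE 0.597, limma, adjusted p = 0.381), and it was 0.78 without wild-type replicate 2 and 2.57 without wild-type replicate 1.

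The related gene eif4ebp3l (chromosome 14, 6972868 to 6987649, minus strand) had 2636 and 1589 in ccn2a-/- ventricles, against 1403 and 476 in wild type. The groups again did not overlap, although mutant replicate 2 and wild-type replicate 1 were close. Its log2 fold change was 1.32 (SE 0.527, adjusted p = 0.386, limma), or 0.54 without wild-type replicate 2 and 2.10 without wild-type replicate 1. For eif4ebp1 (chromosome 21, 21013147 to 21020708, minus strand), whose mammalian counterpart is the best studied mTORC1 substrate of the family, the values were 2310 and 1530 in ccn2a-/- ventricles against 1269 and 852 in wild type. The order of the libraries was the one seen for eif4ebp3l, and the log2 fold change was 0.85 (SE 0.297, adjusted p = 0.381, limma), or 0.56 with mutant replicate 1 left out and 0.57 with wild-type replicate 2 left out. For eif4ebp2 (chromosome 13, 30163515 to 30168897, plus strand) the values were 6635 and 5502 in ccn2a-/- ventricles against 5715 and 3435 in wild type. Here wild-type replicate 1 lay between the mutants, so the groups overlapped, with a log2 fold change of 0.45 (SE 0.292, adjusted p = 0.476, limma) that was 0.08 without wild-type replicate 2 and 0.81 without wild-type replicate 1.

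Over the 4 genes the summed normalised count was 12040 and 8914 in ccn2a-/- ventricles, against 8600 and 4824 in wild type, with means of 10477 ± 2210 and 6712 ± 2670 (SD, n = 2 each). The sum of mutant replicate 2 exceeded that of wild-type replicate 1 by much less than the wild types differed from each other. The median log2 fold change was 1.09. Leaving out wild-type replicate 2 gave 0.56, mutant replicate 1 gave 0.76, mutant replicate 2 gave 1.42 and wild-type replicate 1 gave 1.62, with all 4 genes higher in the mutant in each case. From mutant replicate 1 over mutant replicate 2 and wild-type replicate 1 to wild-type replicate 2, these sums descended. So did the cardiomyocyte, erythrocyte and endothelial marker sums, the mitochondrial share and the total of all values. That total was 21468746 and 19136642 in ccn2a-/- ventricles against 18059246 and 16310160 in wild type. The part of each of these in the result was not tested.

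**Figure D2:**
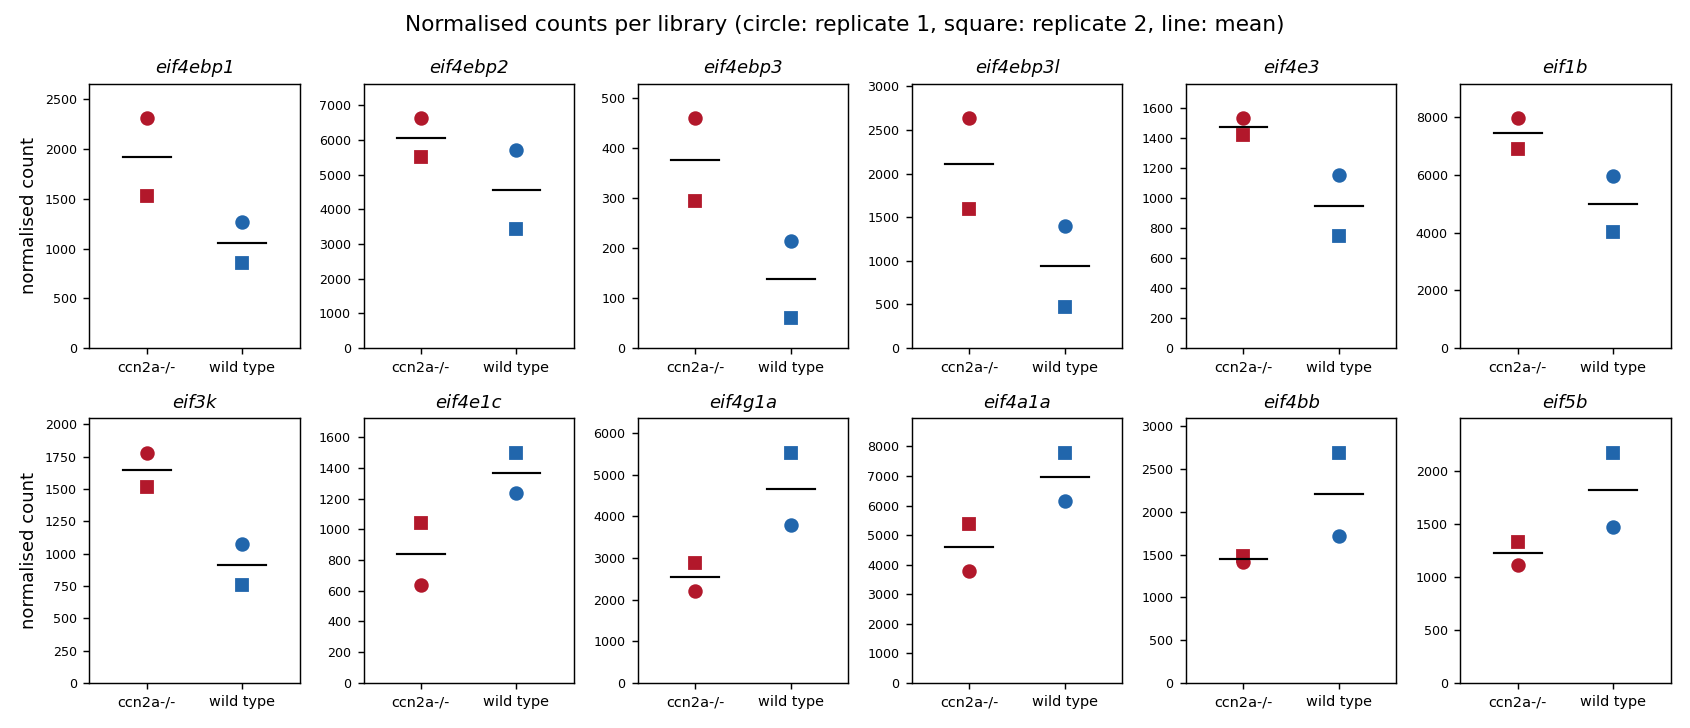
Normalised counts of 12 initiation factor genes in each library, mutants (red) left of wild type (blue), with replicate 1 as a circle, replicate 2 as a square and the group mean as a line. The mutants lie above for eif4ebp1, eif4ebp3, eif4ebp3l and eif3k and below for eif4g1a, eif4a1a and eif4e1c, and wild-type replicate 2 lies farther from the mutants than wild-type replicate 1 in every panel.

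The 5 eif4g genes, for eIF4G scaffolds and their DAP5-like relatives, all had a log2 fold change below 0. The genotypes did not overlap at 2 of them, or 40%, against 52.3% of all genes. The gene eif4g1a (chromosome 2, 16798652 to 16842699, plus strand) was at 2220 and 2887 in ccn2a-/- ventricles, against 3797 and 5529 in wild type. Both mutants were below both wild types. This was the lowest log2 fold change of any member, at -0.86 (SE 0.262, adjusted p = 0.381, limma). It was -0.58 without wild-type replicate 2 and -1.13 without wild-type replicate 1.

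The gene eif4g2a, which encodes a DAP5-like protein without the eIF4E-binding region, was at 3066 and 3346 in ccn2a-/- ventricles against 3948 and 5011 in wild type, also without overlap (log2 fold change -0.47, SE 0.209, adjusted p = 0.392, limma). Its paralog eif4g2b was at 4305 and 4034 against 3968 and 4486, with wild types on both sides of the mutants. The remaining scaffold genes eif4g3a and eif4g3b overlapped between genotypes, with log2 fold changes of -0.30 and -0.39. The median over the eif4g genes was -0.39, which shrank to -0.18 when either wild-type replicate 2 or mutant replicate 1 was left out. Their summed normalised count was 11174 and 12342 in ccn2a-/- ventricles against 13750 and 17667 in wild type. The proliferation and macrophage marker sums ascended over the libraries in the same order. The neutrophil sum was low only in mutant replicate 1, at 290, and ran from 549 to 556 in the others. The part of these markers in the result was not tested. Per library, the ratio of the eif4ebp sum to the eif4g sum was 1.08 and 0.722 in ccn2a-/- ventricles, against 0.625 and 0.273 in wild type. The ratio is not corrected for gene length, so only its differences between libraries can be read. Because the eif4ebp sums lay above and the eif4g sums below in both mutants, the ratio had to separate the genotypes and adds nothing to those sums. With 2 libraries a group, the smallest p that an exact permutation test of genotype allows is 0.333.

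Cap-binding eIF4E genes differed among themselves. The fish gene eif4e1c (chromosome 13, 18311410 to 18324469, plus strand), a cap-binding paralog, was at 636 and 1043 in ccn2a-/- ventricles, against 1233 and 1497 in wild type. The mutants were below the wild types, and mutant replicate 1 was the lowest library. The log2 fold change was -0.74 (SE 0.285, adjusted p = 0.382, limma), and -0.38 without mutant replicate 1. In contrast, eif4e3 (chromosome 23, 10724042 to 10745319, minus strand), a cap-binding member of an atypical class, was at 1533 and 1418 in ccn2a-/- ventricles against 1154 and 745 in wild type. Its mutants were close together and above both wild types, at a log2 fold change of 0.67 (SE 0.257, adjusted p = 0.381, limma), or 0.35 without wild-type replicate 2.

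The canonical genes differed less. The gene eif4ea was at 377 and 438 in ccn2a-/- ventricles against 513 and 456 in wild type, a small gap with the mutants below. Its paralog eif4eb was at 469 and 643 against 656 and 551 and overlapped. The gene eif4e2, whose product (4EHP in mammals) binds the cap without eIF4G and represses translation, was at 399 and 388 against 459 and 404. The gene named eif4e2rs1 was at 310 and 346 against 332 and 323, with a log2 fold change of 0.00. The 6 genes together summed to 3724 and 4276 in the mutants and 4347 and 3976 in wild type, which overlap. The ratio of the eif4ebp sum to this sum was 3.23 and 2.08 in ccn2a-/- ventricles against 1.98 and 1.21 in wild type. In both ratios mutant replicate 2 was nearer to wild-type replicate 1 than to mutant replicate 1. The gene eif4enif1, for the eIF4E transporter that shuttles eIF4E and acts in message repression, was at 376 and 310 against 252 and 278, with the mutants above (log2 fold change 0.37, adjusted p = 0.472, limma). A 400-base stretch of it overlaps sfi1 on the opposite strand in the table, and whether reads were counted by strand is not stated.

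Helicase genes of eIF4F diverged between paralogs. The gene eif4a1a (chromosome 7, 26510827 to 26518086, minus strand) was at 3787 and 5389 in ccn2a-/- ventricles, against 6158 and 7781 in wild type. Its paralog eif4a1b (chromosome 5, 24208413 to 24219344, minus strand) was at 11781 and 9395 in ccn2a-/- ventricles, against 9117 and 7539 in wild type. Both genes separated the genotypes, eif4a1a with the mutants below and eif4a1b with the mutants above. Log2 fold changes were -0.62 (SE 0.256, adjusted p = 0.386) and 0.34 (SE 0.232, adjusted p = 0.490), both from limma. Without mutant replicate 1 they were -0.36 and 0.18, and eif4a1b was at 0.21 without wild-type replicate 2. Under quantile normalisation eif4a1a was at -0.79 and eif4a1b at 0.10, against a median of 0.02 over all genes. With libraries scaled to the same nuclear total they were at -0.80 and 0.16, against -0.18 over all genes. The summed counts of all 4 eif4a genes were 18132 and 17089 in the mutants and 17810 and 18031 in wild type, which overlap. The gene eif4a2 and the exon junction complex helicase gene eif4a3 had log2 fold changes of -0.07 and -0.13 and overlapped. Among the cofactors that stimulate the helicase, eif4bb was at 1416 and 1484 in ccn2a-/- ventricles against 1717 and 2690 in wild type, with wild-type replicate 2 apart from the other libraries (log2 fold change -0.57, SE 0.258, adjusted p = 0.395, limma). The gene eif4h was at 1164 and 1297 against 1332 and 1605, and eif4ba overlapped.

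**Figure D3:**
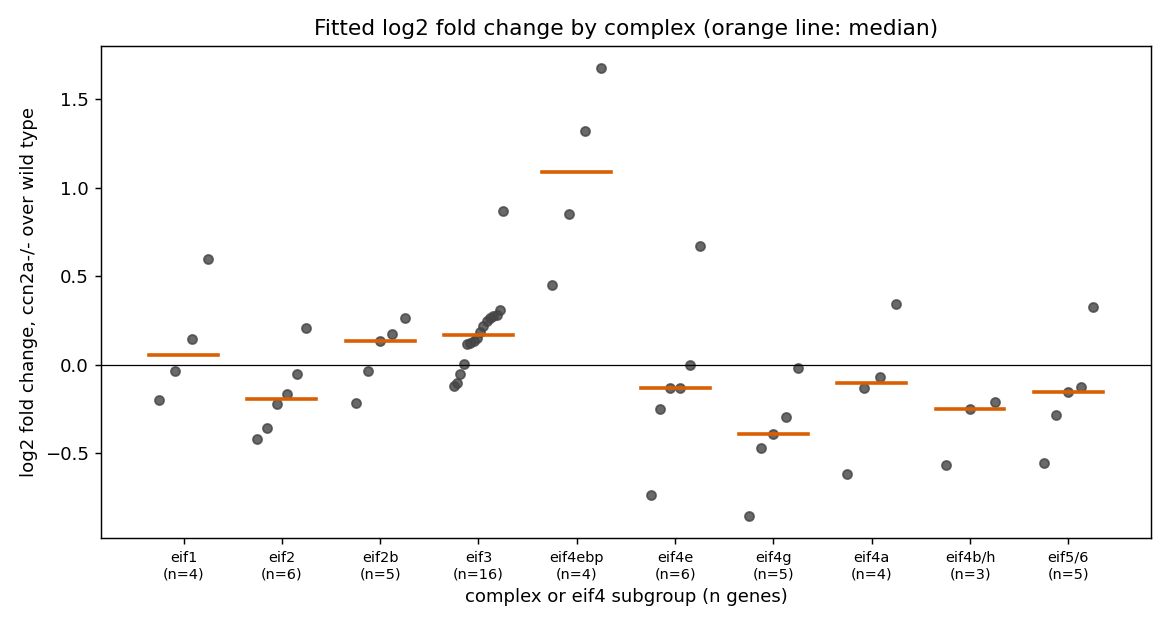
Fitted log2 fold change (mutant over wild type) of 58 genes by complex, with eif4 split into its subgroups and an orange line at each median; eif4enif1 stands alone in its subgroup and is not drawn. The eif4ebp median is at 1.09 and the eif4g median at -0.39, while the eif3 genes other than eif3k lie between -0.12 and 0.31.

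Ratios within a library were then computed for 12 paralog pairs among the members, chosen by symbol after the values had been seen. The eif4a1a to eif4a1b ratio of normalised counts was 0.321 and 0.574 in ccn2a-/- ventricles, against 0.675 and 1.03 in wild type. It was lowest in mutant replicate 1 and highest in wild-type replicate 2, without overlap. The eif5a2 to eif5a ratio was 0.269 and 0.357 in ccn2a-/- ventricles against 0.418 and 0.534 in wild type, and eif4g2a to eif4g2b was 0.712 and 0.829 against 0.995 and 1.12. In each of these pairs the mutant ratios were below the wild-type ratios. For eif4a1a with eif4a1b and for eif5a2 with eif5a this had to be so, since the genes already separated the genotypes on opposite sides, whereas eif4g2b by itself overlapped. Of the 12 pairs, 8 did not overlap between genotypes, 6 with the mutant ratios below and 2 above, and 4 overlapped. Above were eif4ba to eif4bb and eif4g3a to eif4g3b. The direction depends on which paralog is divided by the other, and the share over other gene pairs was not computed. In 4 of the 12 pairs the log2 fold changes of the genes had opposite signs. A single scaling factor per library cancels in such a ratio, whereas quantile normalisation does not. Close paralogs can share reads, and the treatment of reads that match both is not stated.

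**Figure D4:**
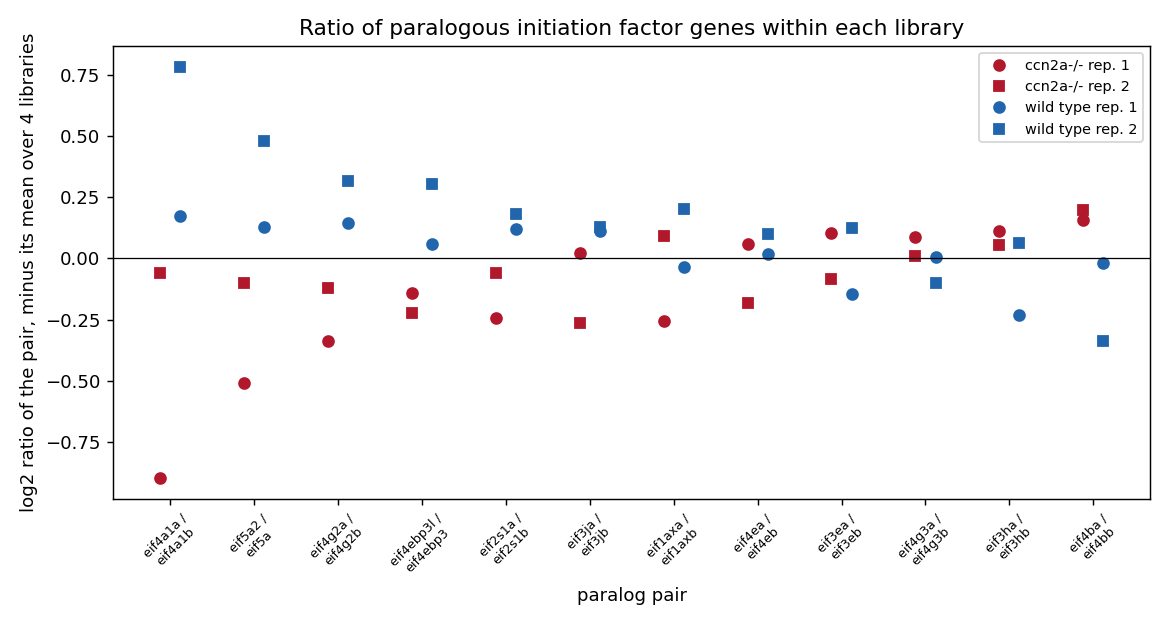
Log2 ratio of the paralogs of each of 12 pairs within each library, minus the pair's mean over the 4 libraries, with mutants (red) left of wild type (blue). In the pairs eif4a1a and eif4a1b, eif5a2 and eif5a, and eif4g2a and eif4g2b the mutants lie below wild type, with mutant replicate 1 lowest and wild-type replicate 2 highest.

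The eIF3 genes, for the largest of the initiation complexes, were mostly slightly higher in the mutants. Of 16 genes 13 had a log2 fold change above 0, with a median of 0.17, but 10 overlapped between genotypes and 6 did not, or 37.5%, fewer than the 52.3% of all genes. The summed normalised count was 63726 and 50818 in ccn2a-/- ventricles, against 48867 and 52624 in wild type. Mutant replicate 1 alone was high, and mutant replicate 2 lay between the wild types. Without mutant replicate 1 the median was 0.02 with 9 of 16 genes higher. When libraries were scaled to the same nuclear total it was -0.01 with 8 of 16 higher. Over all genes the median was -0.18 under that scaling. Under quantile normalisation the eif3 median was 0.06 with 10 of 16 higher, against 0.02 over all genes.

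The exception was eif3k (chromosome 15, 47845369 to 47848544, minus strand), for a small peripheral subunit. It had 1780 and 1514 in ccn2a-/- ventricles, against 1073 and 754 in wild type. Both mutants were above both wild types, and wild-type replicate 2 was the lowest library. Its log2 fold change was 0.87 (SE 0.241, unadjusted p = 0.0114, adjusted p = 0.381, limma), the smallest unadjusted p of any member. It stayed between 0.61 and 1.12 with any library left out.

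Other eIF3 subunit genes lay in a narrow range. The gene eif3f was at 5205 and 4164 in ccn2a-/- ventricles against 4004 and 3515 in wild type, with a log2 fold change of 0.31 (adjusted p = 0.490, limma). The core scaffold genes eif3ba and eif3c were at 8527 and 6724 against 6557 and 7119, and at 9106 and 6785 against 6499 and 7912. Both overlapped, and mutant replicate 1 was the highest library for each. Besides eif3f and eif3k, the genes eif3ea, eif3eb, eif3i and eif3m separated with the mutants above, at log2 fold changes from 0.24 to 0.28. The genes eif3s10 and eif3s6ip, older symbols for the eIF3a and eIF3l subunits, were at -0.10 and 0.01, and the loosely bound eIF3j genes eif3ja and eif3jb at -0.12 and 0.12.

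Of the 6 eif2 genes 5 had a log2 fold change below 0, and 3, or 50%, did not overlap between genotypes, near the 52.3% of all genes. The subunits of the trimer itself are encoded by 4 of them. The beta subunit gene eif2s2 was at 2597 and 2658 in ccn2a-/- ventricles, against 2822 and 4372 in wild type. The groups did not overlap, but the difference rested on wild-type replicate 2: the log2 fold change was -0.42 (SE 0.255, adjusted p = 0.456, limma) and -0.10 without that library. The alpha subunit gene eif2s1a, for the subunit that stress kinases phosphorylate, was at 653 and 664 against 743 and 957 (log2 fold change -0.36), whereas its paralog eif2s1b was at 1867 and 1671 against 1651 and 2041 and overlapped. The gamma subunit gene eif2s3, for the GTP- and tRNA-binding subunit, was at 5052 and 4089 against 3770 and 4126. It was the 1 eif2 gene above 0, at 0.20, and its groups overlapped. The genes eif2a and eif2d, whose products bind tRNA outside the trimer, had log2 fold changes of -0.17 and -0.22. The eif2 median of -0.19 was -0.04 without wild-type replicate 2.

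The exchange factor eIF2B showed small differences within the complex. Among the regulatory subunit genes, eif2b2 was at 582 and 462 in ccn2a-/- ventricles against 433 and 431 in wild type (log2 fold change 0.26, adjusted p = 0.563, limma), and eif2b4 at 631 and 643 against 532 and 601. Both had the mutants above. The catalytic subunit gene eif2b5 was at 459 and 481 against 516 and 578, with the mutants below (log2 fold change -0.22, adjusted p = 0.603, limma), while its partner eif2b3 was at 279 and 294 against 252 and 270. The genotypes did not overlap at 4 of the 5 genes, 3 with the mutants above and 1 below, or 80%, against 52.3% of all genes. When libraries were scaled to the same nuclear total the median of 0.13 became -0.05, against -0.18 over all genes under that scaling.

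Among the scanning factors, eif1b (chromosome 19, 5418006 to 5421610, plus strand), a gene for eIF1, was at 7973 and 6917 in ccn2a-/- ventricles, against 5969 and 4022 in wild type. Mutants were above, with a log2 fold change of 0.60 (SE 0.256, adjusted p = 0.386, limma), and 0.32 without wild-type replicate 2. The eIF1A gene eif1axb was at 2567 and 2565 against 2660 and 2600, a log2 fold change of -0.04. Its paralog eif1axa was at 452 and 575 against 546 and 630 and overlapped, at -0.20, or -0.03 without mutant replicate 1 and -0.38 without mutant replicate 2. The eIF1A-domain gene eif1ad was at 341 and 264 against 244 and 301 and overlapped.

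In the last step of initiation, the subunit-joining GTPase gene eif5b was at 1113 and 1327 in ccn2a-/- ventricles, against 1471 and 2167 in wild type. The mutants were below, with a log2 fold change of -0.55 (SE 0.251, adjusted p = 0.395, limma), or -0.28 without wild-type replicate 2. An 818-base stretch of eif5b overlaps arhgef7b on the same strand in the table. The GTPase-activating gene eif5 was at 4269 and 3963 against 4141 and 4876, and eif6 at 835 and 846 against 904 and 970. The gene eif5a encodes the hypusine-bearing protein that also acts in elongation, and it was at 21583 and 18044 in ccn2a-/- ventricles against 17808 and 13939 in wild type (log2 fold change 0.32, adjusted p = 0.538, limma). The gene eif5a2 was at 5808 and 6440 against 7448 and 7445, on the opposite side (log2 fold change -0.28, adjusted p = 0.494, limma). Under quantile normalisation eif5a was at 0.05 and eif5a2 at -0.46, against a median of 0.02 over all genes. With libraries scaled to the same nuclear total they were at 0.14 and -0.46, against -0.18 over all genes. The hypusine-forming enzyme genes dhps and dohh were at 495 and 463 against 445 and 326, and at 426 and 406 against 378 and 376.

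Regulators around the initiation factors were read from lists, and none of their genes passed over all genes tested. Of 24 mTORC1 and eIF4E regulator genes, 16 were higher and 8 lower (median log2 fold change 0.29), and 17, or 70.8%, did not overlap between genotypes, against 52.3% of all genes. At an unadjusted p under 0.05 there were 4, or 16.7%, against 12.8% of all genes, and all 4 were higher. Those were pdcd4b, for an inhibitor of eIF4A, at 647 and 388 against 249 and 257, tsc2, for a subunit of the complex that switches mTORC1 off, at 1060 and 1028 against 749 and 617, and akt1s1 and ddit4, for further mTORC1 inhibitors, at 2171 and 1536 against 1218 and 743 and at 1778 and 2559 against 1429 and 956. The groups separated for each of them. Of the 17 genes without overlap, 13 had the mutants above and 4 below. Below were, among others, the kinase gene mtor, at 849 and 1005 in ccn2a-/- ventricles against 1221 and 1128 in wild type, and the S6 kinase gene rps6kb1b, at 508 and 493 against 623 and 671. Above were also mlst8, mknk2a and mknk2b, at log2 fold changes of 0.17, 0.62 and 0.39. The others above were tsc1a, tsc1b, deptor, sesn2, sesn3 and pdcd4a, at log2 fold changes from 0.30 to 0.72. The genes rptor and rhebl1 overlapped, at 0.00 and 0.23.

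Of 14 genes around eIF2 phosphorylation, 6 were higher and 8 lower (median -0.13). Groups did not overlap at 8, or 57.1%, near the 52.3% of all genes. At an unadjusted p under 0.05 (limma) there was 1, or 7.14%, against 12.8% of all genes. That gene, the pseudokinase gene trib3, was at 2369 and 2101 in ccn2a-/- ventricles against 1442 and 1035 in wild type. The gene ppp1r15a, for the phosphatase subunit that reverses eIF2 alpha phosphorylation, was at 927 and 835 against 576 and 703, while the transcription factor gene atf4a was at 5621 and 3985 against 6240 and 7594. Its paralog atf4b was on the opposite side, at 4994 and 5007 against 4517 and 4210. The kinase gene eif2ak3 was at 309 and 332 against 371 and 414, eif2ak1 at 352 and 308 against 305 and 328, and eif2ak2 at 3 and 54 against 53 and 72.

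Of 13 poly(A)-binding and closed-loop genes 6 were higher (median -0.05), and 10 did not overlap between genotypes, 5 in each direction. The gene paip1, for a partner of poly(A)-binding protein, was at 814 and 622 in ccn2a-/- ventricles against 524 and 429 in wild type, and the helicase gene dhx29 at 236 and 205 against 289 and 395. Of 20 elongation and termination genes 14 were higher (median 0.20), and 14 did not overlap, 9 with the mutants above and 5 below. Above were eef2k, for the kinase that inhibits elongation factor 2, at 2268 and 1584 against 1509 and 795, and eef1b2, for an exchange factor subunit of eEF1, at 6823 and 6148 against 5214 and 4524. Below was the release factor gene etf1b, at 2613 and 3022 against 3609 and 4953. The low-count gene eef2a.2 was also below, at 10 and 25 against 49 and 38. Of the other eef2 genes, the most abundant, eef2b, overlapped, at 70363 and 42862 against 46605 and 61006. The mutants were below for eef2a.1 and above for eef2l2. Of 8 mitochondrial translation factor genes 4 were higher (median 0.01), and 5 did not overlap, 2 with the mutants above and 3 below. Among them the initiation factor gene mtif3 was at 168 and 184 in ccn2a-/- ventricles against 164 and 127 in wild type, and the elongation factor genes tsfm and gfm1 were at 308 and 431 against 473 and 506 and at 662 and 861 against 869 and 946. The non-overlapping shares of these lists were 76.9%, 70% and 62.5%, against 52.3% of all genes. At an unadjusted p under 0.05 (limma) their shares were 7.69%, 5% and 0%, below the 12.8% of all genes.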

How the data were processed

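The deposited table holds, per gene, 1 whole-number score per library, which is a count of reads scaled by library by the authors and then rounded. This reading rests on the values, whose low numbers fall on a regular spacing. The scaled totals were not equal, at 21468746 and 19136642 in ccn2a-/- ventricles against 18059246 and 16310160 in wild type. Summed counts are therefore not set to a common total. STAR 2.4.0a, featureCounts 1.4.5-p1 (Subread), DESeq2 1.6.2 and the build GRCz10 (danRer10) are named per the submitters' processing notes, without settings. The largest chromosome 4 coordinate, 78048911, lies beyond that build, so coordinates are given as printed in the table with the build unsettled. Factors of 0.874 and 0.946 (mutant) and 0.952 and 1.320 (wild type), estimated from the spacing, gave the approximate depths. Because the scores are not raw counts, limma 3.58.1 (trend) in R 4.3.3 was fitted to log2(score + 1), with no block, on genes with a mean of 10 or more, leaving 2 residual degrees of freedom plus 4.01 from other genes. Such fold changes understate low genes. The fit was also run on simulated counts with a single fixed dispersion and no shift between libraries. Those counts are unlike these libraries in that respect, so the run does not bear on such shifts. Tables and figures used pandas 2.3.3 and matplotlib 3.10.9. Members and lists were chosen with earlier results of these data known. Named genes followed a rule by complex (highest mean, smallest p, all eif4e and eif4ebp genes, extremes). Further members, some genes of the lists and the paralog pairs were named after their values were seen. Alternatives covered the pseudocount, filter, scaling, limma voom, replicate number as a block, and each library left out.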

Additional observations from a re-analysis of the deposited data

How the results depend on the processing

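Members past an adjusted p of 0.05 numbered 0 under all 12 alternatives (limma). At an unadjusted p under 0.05 (limma) there were 7, against 2145 of the 16730 genes tested. Under quantile normalisation there were 11, against 2246 of all genes. With libraries scaled to the same nuclear total there were 9, against 2388. The counts of members and of all genes also moved with 1 library left out, and both fell without mutant replicate 1 or wild-type replicate 2. With the replicate number as a block there were 10 members, against 2655 of all genes. Replicates share only a number, and the differences between replicates 1 and 2 of the genotypes had an r of 0.00406 across genes. In the main fit the median log2 fold change was 0.055 for eif1, -0.13 for eif4 and -0.16 for eif5/6. Under quantile normalisation the medians were -0.10 for all members, -0.0020 for eif1, -0.17 for eif4 and -0.29 for eif5/6. They were -0.23 for eif2, 0.11 for eif2b and 0.056 for eif3, beside 0.02 over all genes. Scaling to the same nuclear total moved the median of all genes to -0.18, and those of all members, eif1, eif2, eif2b, eif3, eif4 and eif5/6 to -0.22, -0.13, -0.37, -0.046, -0.014, -0.31 and -0.34. With 1 library left out, medians ran from -0.038 to 0.071 for all members, -0.032 to 0.15 for eif1 and -0.35 to -0.037 for eif2. They ran from 0.084 to 0.18 for eif2b, 0.021 to 0.35 for eif3, -0.13 to -0.093 for eif4 and -0.25 to -0.11 for eif5/6. The lone library of a genotype is then assumed to vary like the others. Of 372 values of the 31 named genes, 355 kept their sign, and 17 of 7 genes did not. The filters and the replicate block leave a member's log2 fold change as it is, and the pseudocounts and limma voom nearly so. These alternatives could hardly turn a sign, so the count of 355 is no measure of stability. The reversals came from quantile normalisation, the same nuclear total or a library left out. With the same nuclear total, eif1ad, eif2b3, eif2b4, eif3ba, eif3c and eif4e2rs1 were at -0.034, -0.046, -0.0090, -0.033, -0.048 and -0.18, and under quantile normalisation eif3ba, eif3c and eif4e2rs1 at -0.068, -0.096 and -0.016. Without 1 library, eif1ad ran from -0.038 to 0.33, eif3ba from -0.023 to 0.32, eif3c from -0.080 to 0.34, eif4e2rs1 from -0.079 to 0.079 and eif4eb from -0.36 to 0.10. The cause was not tested.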

Other observations

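The gene EIF1B is spelled in capitals in the table and so fell outside the symbol rule. It had 720 and 837 in ccn2a-/- ventricles against 1012 and 1238 in wild type, without overlap and on the opposite side from eif1b (log2 fold change -0.53, SE 0.210, adjusted p = 0.386, limma). Over the members, mutant replicate 1 held the highest value of 25 genes and the lowest of 23, and wild-type replicate 2 the highest of 23 and the lowest of 14, while mutant replicate 2 and wild-type replicate 1 held the highest of 4 and 7. Mutant replicate 1 thus held the highest value in 42.4% of members and the lowest in 39.0%, against 33.0% and 31.2% of all genes tested. For wild-type replicate 2 these shares were 39.0% and 23.7%, against 33.4% and 33.4% of all genes tested.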
